A study of Homo sapiens with 18 samples.

Results

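The 10 genes described here are CXCL8, CXCL3, CXCL2 and CXCL1, which encode secreted chemokines, and NFKBIA, TNFAIP3, NFKB1, NFKB2, RELB and BIRC3, which encode subunits, inhibitors and targets of the transcription factor NF-kB. They were found by symbol among the 58735 genes of the deposited count table. CXCL8 and CXCL3 were chosen for their rise under CB-103. Their levels in the comparisons of CB-103 with DMSO and with GSI are therefore given as a description with no test, and the other 8 genes were listed by family and pathway.

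CXCL1, CXCL2, CXCL3 and CXCL8 sit in a gene cluster on chromosome 4 and attract neutrophils through the receptors CXCR1 and CXCR2. NF-kB is a dimer of RELA, REL, RELB and the products of NFKB1 and NFKB2. IkB-alpha, the product of NFKBIA, holds it in the cytoplasm until the IkB kinases mark that inhibitor for destruction, and NF-kB then switches on chemokine genes together with its own brakes, NFKBIA and TNFAIP3. In T-cell acute lymphoblastic leukaemia (T-ALL), NF-kB is known as a pathway that acts downstream of NOTCH1.

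RPMI-8402, an established human T-ALL line, was grown in RPMI medium with fetal bovine serum and profiled by polyA RNA sequencing. Cells carried a non-targeting control guide (NT, genotype labelled WT) or were PIK3R1 knockouts (KO), which lack a regulatory subunit of phosphoinositide 3-kinase. Both genotypes received, for 24 h, DMSO as the vehicle, CB-103, a small molecule that blocks transcription by the NOTCH complex, or LY3039278, a gamma-secretase inhibitor (GSI) that blocks the cleavage of NOTCH. The 6 groups were thus NT DMSO, NT CB-103, NT GSI, KO DMSO, KO CB-103 and KO GSI, with 3 replicates each. Neither doses nor whether the knockout is a clone or a pool were given in the sources used here. The labels do not state that replicates were separate cultures, so p-values measure only the spread between these libraries, which may be technical.

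Libraries held 30416183 to 43558387 estimated reads. The knocked-out gene, PIK3R1, was lower in KO libraries under DMSO (-0.97 ± 0.09, log2 fold change with its SE, edgeR adjusted p = 4.1e-07) and GSI (-0.95 ± 0.09, edgeR adjusted p = 3.9e-07), whereas under CB-103 it did not separate the genotypes (-0.16 ± 0.09, edgeR adjusted p = 0.17) and so gives no check of the genotype labels there. All 10 T-lineage markers were detected, with a summed level of 1125 to 2497 CPM (counts scaled to library depth) in the 18 libraries, lowest under CB-103. Among markers of other cell types, S100A8 (myeloid), CDH5 (endothelial) and COL3A1 (fibroblast) were at 0 reads in all 18 libraries, and CSF1R (myeloid) reached at most 1 read in a library. The myeloid markers CD68, ITGAM and LYZ reached group means of up to 34.9, 1.55 and 1.31 CPM. On the same lists PECAM1, an endothelial marker that T cells can also carry, reached a group mean of 249.8 CPM and the fibroblast marker COL1A1 one of 22.3 CPM. The summed endothelial markers stood at 74.3 to 127 CPM in the CB-103 libraries and 216 to 267 CPM in the others, and the summed fibroblast markers at 2.76 to 4.89 and 7.65 to 25.7 CPM. These sums were nearly all PECAM1 and COL1A1. The other endothelial markers listed, VWF, KDR and CDH5, reached group means of at most 0.199 CPM. COL1A2, DCN and COL3A1 reached at most 0.103 CPM. Each sum thus follows a single gene and gives no measure of a cell type. Bulk samples do not show how a level was spread over the cells.

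The promoters are shown because chemokine genes that behaved very differently in these cells carry the same 9-base NF-kB word. RefSeq windows (GRCh38.p14, 250 bases before to 50 after each start) were held for 9 of the 10 genes, all except RELB. The word GGAATTTCC, searched on both strands and added after the windows had been seen, was found in 0.461% of 35116 promoter windows, and among these genes in CXCL8, CXCL1, CXCL3, CXCL2, NFKBIA and the first of 2 NFKB1 windows. It was not found in the windows of TNFAIP3, NFKB2 or BIRC3. Each line gives 29 bases on the gene's own strand with the word, or for NFKBIA its reverse complement, in capitals.
CXCL8: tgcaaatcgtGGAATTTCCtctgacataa
CXCL1: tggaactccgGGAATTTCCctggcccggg
CXCL3: tggagctccgGGAATTTCCctggcccggc
CXCL2: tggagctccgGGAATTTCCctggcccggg
NFKB1: gacgtcagtgGGAATTTCCagccaggaag
NFKBIA: tgactggcttGGAAATTCCccgagcctga

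The stretches lie at chr4:73740468-73740496 (plus strand) for CXCL8, chr4:73869305-73869333 (plus) for CXCL1, chr4:74038749-74038777 (minus) for CXCL3, chr4:74099254-74099282 (minus) for CXCL2, chr4:102501301-102501329 (plus) for NFKB1 and chr14:35404812-35404840 (minus) for NFKBIA. In CXCL8 the word starts 91 bases before the RefSeq start, and in CXCL1, CXCL3 and CXCL2 it starts 78, 78 and 77 bases before it. GENCODE 29 places the starts of CXCL3 and CXCL2 further upstream, so that their stretches fall inside the annotated genes. Over the whole windows CXCL3 was 82.5% identical to CXCL1 and 73.7% identical to CXCL2, against 44.2% to CXCL8. The CXCL8 window alone of those searched also held the AP-1 word TGANTCA, which 7.71% of all windows hold. The 120 bases of chr4:73740386-73740505 (plus strand), which end next to the GENCODE start of CXCL8, show both words in capitals, the AP-1 word first.
CXCL8 upstream: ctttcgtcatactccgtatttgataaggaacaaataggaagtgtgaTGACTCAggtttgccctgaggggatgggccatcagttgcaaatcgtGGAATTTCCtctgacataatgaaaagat

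A looser NF-kB motif, GGG and CC with 5 bases of any kind between them, was found on either strand at least once in the windows of all 9 genes and in 58.7% of all windows, and the C/EBP-ATF word TGATGNAA, found in 3.62% of all windows, was in none of theirs. This motif can overlap GGAATTTCC, and all motifs were searched on both strands. A match describes letters and does not show that a factor binds there.

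CXCL8, the interleukin-8 gene (ENSG00000169429, chr4:73740506-73743716 in hg38), was close to the detection limit with DMSO and clearly detected in every CB-103 library, where its level in KO cells was about 4 times that in NT cells. The 3 NT DMSO libraries held 4, 1 and 6 CXCL8 reads, equal to 0.109, 0.0309 and 0.141 CPM. The 3 NT CB-103 libraries held 924, 576 and 917 reads (22.1, 18.4 and 26.7 CPM). Every CB-103 library lay above every DMSO library. In KO cells the DMSO libraries held 7, 6 and 8 reads (0.201, 0.143 and 0.222 CPM) and the CB-103 libraries 3006, 2965 and 3631 reads (90.1, 87.0 and 104 CPM). The lowest KO CB-103 library was thus more than 3 times the highest NT CB-103 library. With depth taken into account, the summed reads were 228 times higher with CB-103 than with DMSO in NT cells (95% exact interval 127 to 458) and 505 times higher in KO cells (330 to 816). These intervals cover counting error only and are wide because of the 11 and 21 DMSO reads.

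GSI did not bring CXCL8 to such levels. The NT GSI libraries held 8, 3 and 1 reads (0.200, 0.0920 and 0.0260 CPM), which overlap the NT DMSO libraries. The KO GSI libraries held 25, 11 and 3 reads (0.745, 0.312 and 0.0945 CPM) and overlap the KO DMSO libraries too. The difference of GSI from DMSO was 0.13 ± 0.90 on the log2 scale in NT cells (95% interval -1.76 to 2.02) and 1.04 ± 0.59 in KO cells (95% interval -0.21 to 2.29). CXCL8 passed the count filter only through its CB-103 libraries and was filtered out where DMSO and GSI groups were fitted alone, so its values outside CB-103 are given with no test. At this depth only large changes with GSI could have been seen.

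The genotype difference under CB-103 rests on the libraries for which CXCL8 was chosen and is a description too. CXCL8 was 4.18-fold higher in KO than in NT cells there (2.07 ± 0.17 on the log2 scale), and it stayed between 1.92 and 2.197 in all 14 alternative analyses. Under DMSO the difference was 0.90 ± 0.79. Under GSI it was 1.81 ± 0.67, from 12 NT and 39 KO reads, and 0.93 without KO GSI replicate 1, which holds 25 of the 39 reads. The CB-103 response of KO cells exceeded that of NT cells by 1.17 ± 0.90 on the log2 scale, given with no test.

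**Figure D1:**
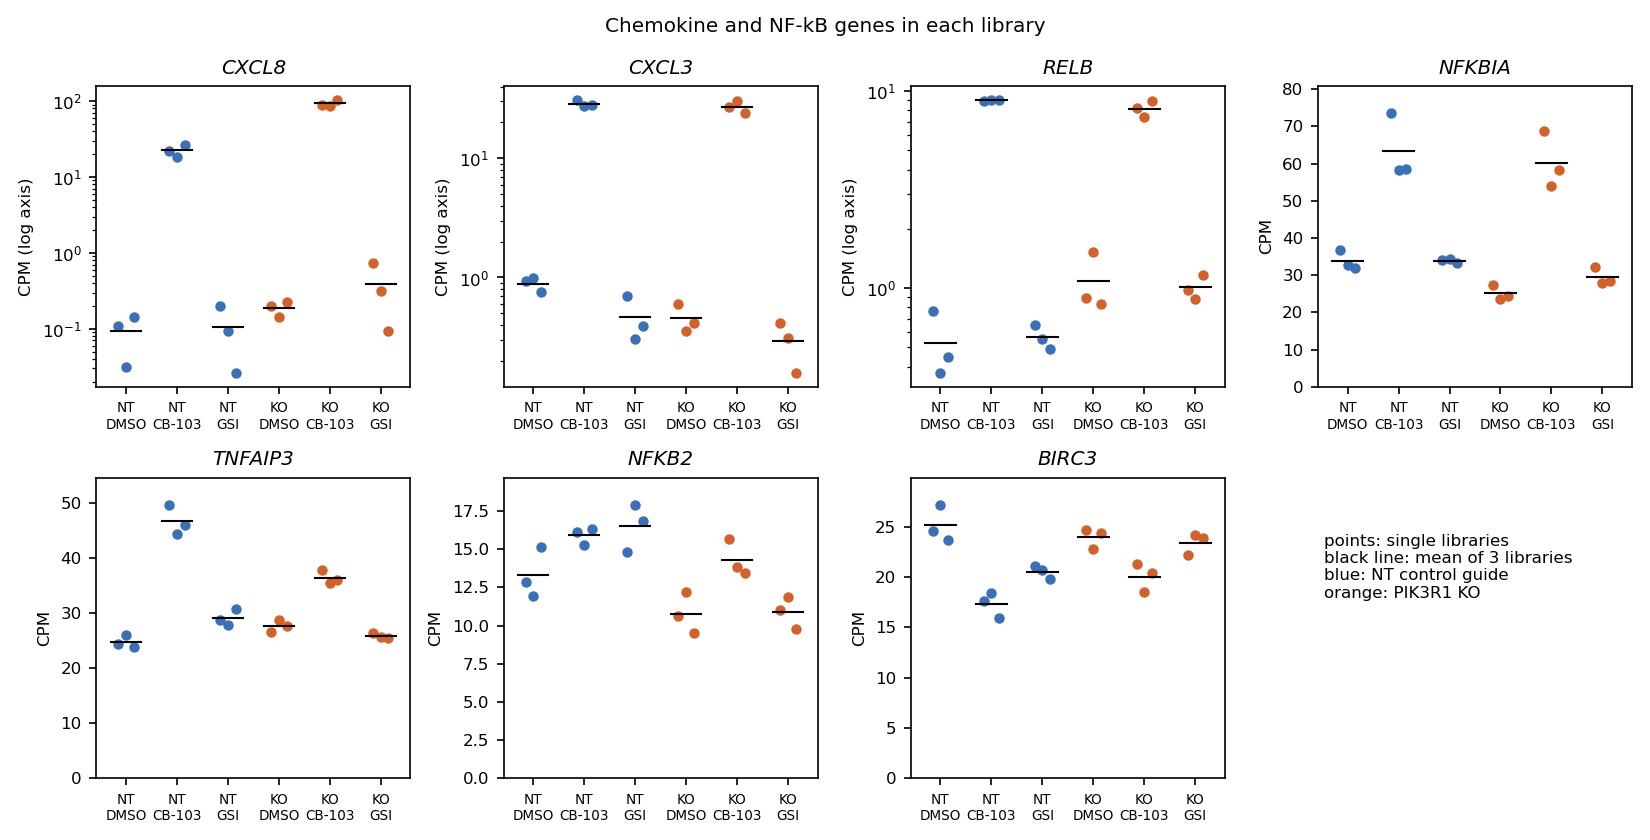
Level in CPM (vertical axis) of the 7 genes that passed the count filter, in each of 18 libraries by genotype and treatment (horizontal axis); points are single libraries and black lines the means of 3, and CXCL8, CXCL3 and RELB are on log axes. CXCL8, CXCL3 and RELB stand far above their DMSO and GSI levels in both CB-103 groups, and CXCL8 alone of these 3 is higher in KO CB-103 (87.0 to 104 CPM) than in NT CB-103 (18.4 to 26.7 CPM).

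CXCL3 (ENSG00000163734, chr4:74036589-74038807), a neutrophil chemokine of the GRO group, rose with CB-103 to much the same level in both genotypes. The NT DMSO libraries stood at 0.930, 0.987 and 0.751 CPM and the NT CB-103 libraries at 31.04, 27.4 and 28.0 CPM. The KO DMSO libraries stood at 0.602, 0.358 and 0.417 CPM and the KO CB-103 libraries at 26.9, 30.0 and 24.0 CPM. Treated and vehicle libraries did not overlap in either genotype. The ratio of summed reads was 33.0 in NT cells (95% exact interval 27.0 to 40.8, 3117 against 98 reads) and 59.7 in KO cells (45.3 to 80.3, 2757 against 51 reads). Under CB-103 the genotypes differed by -0.10 ± 0.15 on the log2 scale (95% interval -0.41 to 0.22), given with no test as for CXCL8. The CB-103 response of KO cells exceeded that of NT cells by 0.86 ± 0.31 (95% interval 0.20 to 1.52), likewise a description.

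With DMSO, CXCL3 was 1.94-fold lower in KO than in NT cells (-0.96 ± 0.27, edgeR adjusted p = 0.018), and with GSI the genotypes differed by -0.67 ± 0.34 (edgeR adjusted p = 0.15). It was lower with GSI than with DMSO in NT cells (-0.89 ± 0.27, edgeR adjusted p = 0.0238), where the libraries stood at 0.701, 0.307 and 0.390 CPM. In KO GSI cells the libraries stood at 0.417, 0.312 and 0.157 CPM, and the difference from DMSO was -0.60 ± 0.34 (edgeR adjusted p = 0.26). Both calls rest on few reads. The DMSO libraries entered the choice of CXCL3, so these p-values are no independent support. The genotype call was lost in limma-voom (adjusted p = 0.0693) and without NT DMSO replicate 1 or 2 or KO DMSO replicate 2 or 3 (edgeR adjusted p = 0.0553, 0.0619, 0.0888 and 0.0588), and the GSI call in limma-voom (adjusted p = 0.0696), in a fit to the compared groups alone (edgeR adjusted p = 0.0812) and without NT DMSO replicate 1 or 2 or NT GSI replicate 2 or 3 (edgeR adjusted p = 0.0694, 0.0771, 0.0829 and 0.0967).

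On the length-normalised scale (TPM), which allows genes to be compared, CXCL8 stood below CXCL3 in every NT CB-103 library and above it in every KO CB-103 library. The ratio of CXCL8 to CXCL3 was 0.549, 0.516 and 0.733 in NT CB-103 and 2.57, 2.23 and 3.34 in KO CB-103. The genotypes differed in this ratio by 4.52-fold, and their libraries did not overlap. Nearly all of the signal of each gene came from its main protein-coding transcript. CXCL8-201 held 30.7 of 32.1 TPM in NT CB-103 and 129 of 136 TPM in KO CB-103, and CXCL3-201 held 50.6 of 53.7 and 48.4 of 50.9 TPM. A CXCL8 transcript that retains an intron, CXCL8-203, held 0.531 and 2.99 TPM in these groups and was listed at 0 in the other 4.

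**Figure D2:**
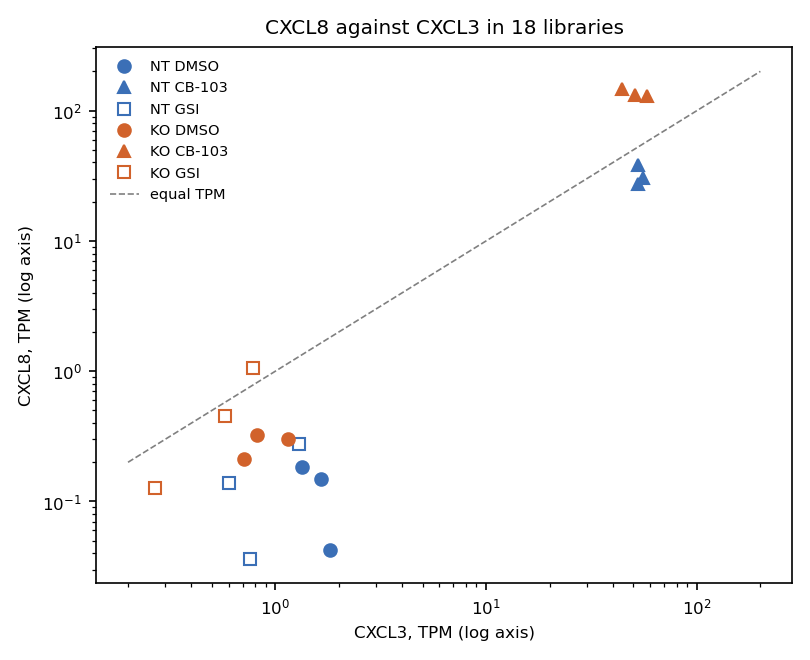
TPM of CXCL8 (vertical axis, log) against CXCL3 (horizontal axis, log) in 18 libraries, with a dashed line at equal TPM; colour gives the genotype and shape the treatment. The NT CB-103 libraries lie below the line (ratios 0.516 to 0.733) and the KO CB-103 libraries above it (2.23 to 3.34).

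The nearest relatives of these genes gave no reads. CXCL1 (chr4:73869393-73871242), CXCL2 (chr4:74097035-74099293), CXCL6, PF4V1 and PF4, all in the same cluster, were at 0 reads in all 18 libraries. With about 3 reads allowed by a count of 0, a group of 3 libraries could hide at most 0.0266 to 0.0298 CPM. CXCL5 had 1 read and PPBP, the platelet basic protein gene, 11 reads over the 18 libraries. The flanking genes RASSF6 (836 reads) and MTHFD2L (13804 reads) were detected in all 18. Of the 31-base words of CXCL3, 9.54% also occur in CXCL2 or CXCL1, so reads could in part be exchanged between them by the authors' counting, while CXCL8 shares none with another gene.

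**Figure D3:**
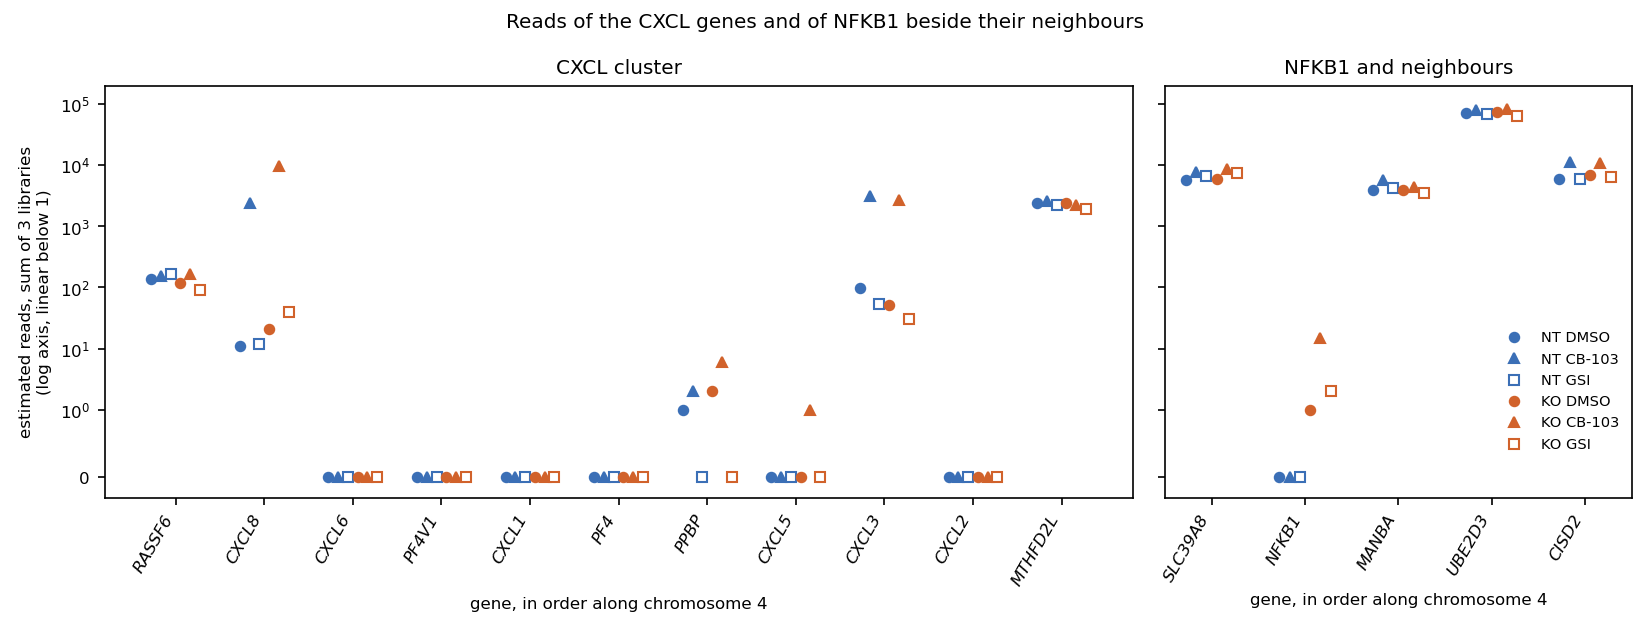
Estimated reads summed over 3 libraries of each group (vertical axis, log, linear below 1) for genes in their order along chromosome 4 (horizontal axis), at the CXCL cluster and around NFKB1; colour gives the genotype and shape the treatment. CXCL8 and CXCL3 reach 2417 to 9602 reads under CB-103 while CXCL6, PF4V1, CXCL1, PF4 and CXCL2 stay at 0 and PPBP and CXCL5 hold 11 reads and 1 read in all, and NFKB1 stays at 0 to 15 reads beside neighbours with at least 3485.

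The other CXCL chemokines listed were also nearly silent, with at most 7 reads in a library (CXCL16). Of 19 other CXCL chemokines and CXC receptors on the list, 3 passed the count filter, and all 3 were receptors. The receptors that bind CXCL8 were hardly detected, with at most 1 read of CXCR1 and 3 of CXCR2 in a library. CXCR4, the receptor of CXCL12, fell with CB-103 in NT cells from 143 ± 6.9 to 83.5 ± 7.7 CPM (SD, n = 3, log2 fold change -0.78 ± 0.06, edgeR adjusted p = 6.9e-09) and rose with GSI (0.32 ± 0.06, edgeR adjusted p = 0.0011). Under CB-103 it stood at 136 ± 6.3 CPM in KO cells, 0.70 ± 0.06 higher than in NT cells (edgeR adjusted p = 1.8e-07). ACKR3, the atypical CXCL12 receptor, fell with CB-103 in NT cells from 1.95 ± 0.29 to 0.485 ± 0.18 CPM (-2.001 ± 0.26, edgeR adjusted p = 2.7e-06). All 3 were called lower with CB-103 in NT cells and 2 in KO cells, beside 28.7% and 23.7% of all genes.

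Among the inhibitors, NFKBIA (ENSG00000100906, chr14:35401511-35404749) rose with CB-103 in both genotypes. It stood at 36.7, 32.7 and 32.0 CPM in NT DMSO and at 73.5, 58.3 and 58.5 CPM in NT CB-103 (log2 fold change 0.91 ± 0.10, edgeR adjusted p = 3.4e-07). In KO cells it stood at 27.4, 23.5 and 24.5 CPM with DMSO and at 68.6, 53.8 and 58.2 CPM with CB-103 (1.26 ± 0.10, edgeR adjusted p = 1.1e-08). Replicate 1 was the highest of the CB-103 libraries in both genotypes, and no treated library overlapped a vehicle library. With DMSO, NFKBIA was 1.35-fold lower in KO than in NT cells (-0.43 ± 0.10, edgeR adjusted p = 0.0053), and under CB-103 the genotypes differed by -0.08 ± 0.10 (edgeR adjusted p = 0.58, 95% interval -0.28 to 0.13). The NT GSI libraries, at 34.0, 34.4 and 33.3 CPM, differed from DMSO by 0.00 ± 0.10 (edgeR adjusted p = 0.99), and the KO GSI libraries, at 32.3, 27.8 and 28.3 CPM, by 0.23 ± 0.10 (edgeR adjusted p = 0.14). In replicates 2 and 3 alone this KO difference was called (0.25, edgeR adjusted p = 0.0183).

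TNFAIP3 (ENSG00000118503, chr6:137867188-137883312) encodes A20, a ubiquitin-editing enzyme that shuts off signals to NF-kB. It rose 1.89-fold with CB-103 in NT cells and 1.31-fold in KO cells. NT libraries stood at 24.4, 26.1 and 23.9 CPM with DMSO and at 49.7, 44.3 and 46.0 CPM with CB-103 (0.91 ± 0.06, edgeR adjusted p = 1.9e-10). KO libraries stood at 26.6, 28.8 and 27.7 CPM with DMSO and at 37.9, 35.6 and 36.0 CPM with CB-103 (0.39 ± 0.06, edgeR adjusted p = 1.5e-05). The 2 responses differed by -0.52 ± 0.08 (interaction term, edgeR adjusted p = 3.4e-04), and under CB-103 TNFAIP3 was 1.28-fold lower in KO than in NT cells (-0.36 ± 0.06, edgeR adjusted p = 7.9e-05). In gene sums of the transcript estimates the difference in response was smaller, at -0.25, and still called. In the CB-103 libraries CXCL8 was higher and TNFAIP3 lower in KO than in NT cells. CXCL3, NFKBIA, NFKB2 and RELB differed there by -0.10, -0.08, -0.15 and -0.14 log2 units, and BIRC3 by 0.21. Whether any of these differences are linked was not tested.

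With GSI, TNFAIP3 rose in NT cells to 28.8, 27.9 and 30.7 CPM (0.24 ± 0.06, edgeR adjusted p = 0.0059) and stood at 26.4, 25.7 and 25.5 CPM in KO cells, where the difference from DMSO was -0.10 ± 0.06 (edgeR adjusted p = 0.25). These responses differed by -0.34 ± 0.08 (interaction term, edgeR adjusted p = 0.0401), a call that was lost in gene sums of the transcript estimates (-0.036, edgeR adjusted p = 0.79) and in 14 of 20 alternatives in all. The antisense gene AL357060.1 overlaps TNFAIP3 and held 49 to 130 reads per library, from 2.65% to 12.7% of the TNFAIP3 reads. How the authors' counting used strand is not given in the sources used here, so reads of this pair could in part be exchanged.

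**Figure D4:**
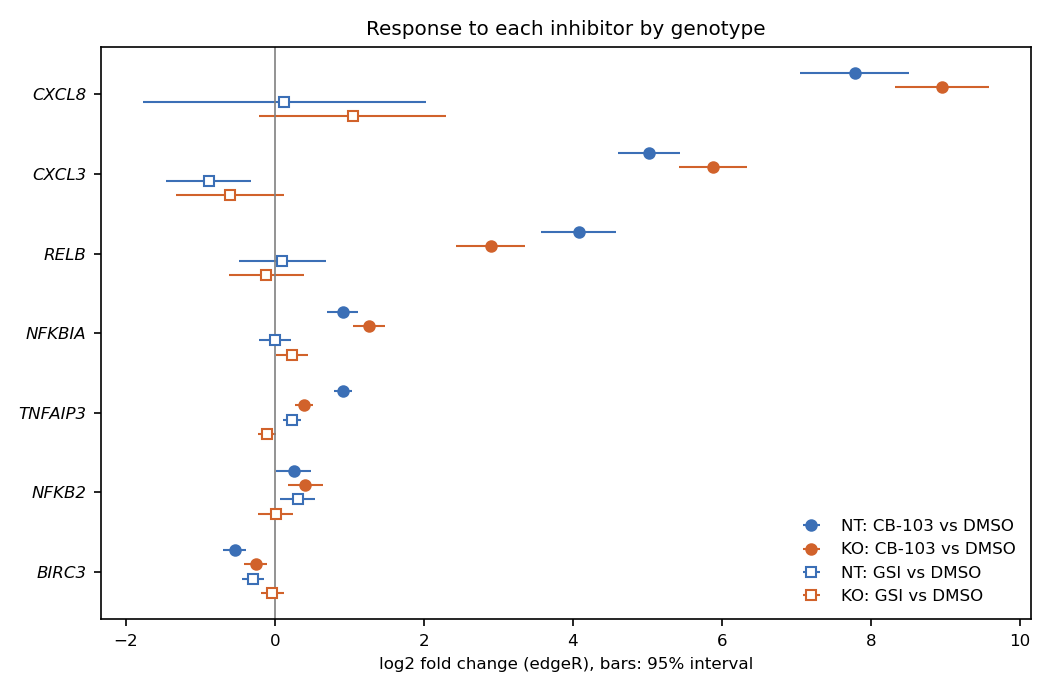
Log2 fold change with its 95% interval (horizontal axis) of each inhibitor against DMSO for the 7 measured genes (vertical axis), in NT (blue) and KO (orange) cells, with filled circles for CB-103 and open squares for GSI. CXCL8, CXCL3 and RELB lie between 2.90 and 8.96 with CB-103 while their GSI values lie between -0.89 and 1.04; the CXCL8 and CXCL3 values with CB-103 are descriptions.

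Among the subunits, RELB (ENSG00000104856, chr19:45001430-45038198), the partner of NFKB2 in the non-canonical pathway, was the member with the largest tested change. It stood at 0.766, 0.370 and 0.446 CPM in NT DMSO and at 8.87, 9.05 and 9.003 CPM in NT CB-103, 16.9-fold higher (4.08 ± 0.24, edgeR adjusted p = 8.9e-11). In KO cells it went from 0.888, 1.53 and 0.834 CPM to 8.18, 7.39 and 8.89 CPM, 7.45-fold higher (2.90 ± 0.22, edgeR adjusted p = 5.0e-09). The genotypes reached the same range under CB-103 (-0.14 ± 0.19, edgeR adjusted p = 0.62, 95% interval -0.55 to 0.27) from different starting points.

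With DMSO, RELB was 2.06-fold higher in KO than in NT cells (1.04 ± 0.26, edgeR adjusted p = 0.0065). Without KO DMSO replicate 2, the highest of its group, the difference was 0.69 (edgeR adjusted p = 0.0646), and in a fit to the compared groups alone it was 1.05 (edgeR adjusted p = 0.0674). The CB-103 responses differed by -1.18 ± 0.32 (interaction term, edgeR adjusted p = 0.0189), which was lost without NT DMSO replicate 2, NT DMSO replicate 3 or KO DMSO replicate 2 (edgeR adjusted p = 0.0619, 0.0603 and 0.0787). The NT GSI libraries, at 0.651, 0.552 and 0.494 CPM, overlapped NT DMSO, and the KO GSI libraries, at 0.984, 0.880 and 1.17 CPM, overlapped KO DMSO. With GSI, RELB was 1.77-fold higher in KO than in NT cells (0.83 ± 0.26, edgeR adjusted p = 0.0199), a call lost without NT GSI replicate 3 or KO GSI replicate 3 (edgeR adjusted p = 0.0692 and 0.0786).

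NFKB2 (ENSG00000077150, chr10:102394110-102402529), which encodes p100 and its processed form p52, changed little. It stood at 12.9, 11.97 and 15.2 CPM in NT DMSO and at 16.2, 15.3 and 16.3 CPM in NT CB-103 (0.25 ± 0.11, edgeR adjusted p = 0.056). The KO libraries stood at 10.6, 12.2 and 9.50 CPM with DMSO and at 15.7, 13.8 and 13.5 CPM with CB-103 (0.41 ± 0.11, edgeR adjusted p = 0.0052). The KO call was lost in replicates 2 and 3 alone (0.36, edgeR adjusted p = 0.057). The NT difference passed the threshold in gene sums of the transcript estimates (0.26, edgeR adjusted p = 0.0072) and without NT DMSO replicate 3 (0.36, edgeR adjusted p = 0.016). With GSI the genotypes separated, with NT libraries at 14.8, 17.9 and 16.9 CPM and KO libraries at 11.03, 11.9 and 9.79 CPM (-0.60 ± 0.11, edgeR adjusted p = 4.8e-04). The rise with GSI over DMSO in NT cells (0.31 ± 0.11, edgeR adjusted p = 0.0489) was lost in 8 of 14 alternatives, among them without NT DMSO replicate 1 or 2 or NT GSI replicate 2 or 3 (edgeR adjusted p = 0.14, 0.20, 0.20 and 0.14).

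NFKB1 (ENSG00000109320, chr4:102501329-102617302), which encodes p105 and p50, the usual partner of RELA, was almost undetected. All 9 NT libraries held 0 reads, and the KO libraries held 1, 0 and 0 reads with DMSO, 1, 1 and 13 with CB-103 and 0, 2 and 0 with GSI. KO CB-103 replicate 3 thus held 13 of the 18 reads, although the transcript estimates of NFKB1 sum to 1 read in that library. NFKB1 has 12 annotated transcripts and shares none of its 31-base words with another gene. Its neighbours SLC39A8 (42536 reads), MANBA (26110), UBE2D3 (443144) and CISD2 (47070) were detected in all 18 libraries. RNA of this gene was therefore not detectable in NT cells at a depth at which the 3 reads that a count of 0 allows come to under 0.03 CPM per group.

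The remaining subunits, RELA and REL, were named after their values were seen, to complete the family. On the TPM scale RELA, which encodes p65, led in every group, with 45.2 ± 2.0 TPM in NT DMSO (SD, n = 3) and 60.9 ± 1.2 TPM in NT CB-103. In the same groups NFKB2 stood at 9.85 ± 1.1 and 12.2 ± 0.33 TPM, REL, the lymphoid c-Rel, at 4.74 ± 0.29 and 6.42 ± 0.31 TPM, and RELB at 0.361 ± 0.13 and 6.38 ± 0.29 TPM. Under CB-103 RELB thus reached the level of REL in NT cells. RELA rose with CB-103 in NT cells (0.38 ± 0.06, edgeR adjusted p = 1.4e-05) and differed by 0.11 ± 0.06 in KO cells (edgeR adjusted p = 0.11). REL was higher in KO than in NT cells under DMSO (0.65 ± 0.08, edgeR adjusted p = 7.4e-06), CB-103 (0.58 ± 0.08, edgeR adjusted p = 1.2e-05) and GSI (0.58 ± 0.08, edgeR adjusted p = 1.7e-05).

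BIRC3 (ENSG00000023445, chr11:102317450-102339403), which encodes the ubiquitin ligase cIAP2 and is a known NF-kB target, went the other way. The NT libraries stood at 24.5, 27.2 and 23.7 CPM with DMSO and at 17.6, 18.4 and 15.9 CPM with CB-103 (-0.54 ± 0.07, edgeR adjusted p = 4.7e-06). In KO cells it fell from 24.7, 22.8 and 24.4 CPM to 21.3, 18.5 and 20.4 CPM (-0.26 ± 0.07, edgeR adjusted p = 0.0067), a call lost in replicates 2 and 3 alone (-0.25, edgeR adjusted p = 0.0529). It also fell with GSI in NT cells, to 21.1, 20.7 and 19.8 CPM (-0.29 ± 0.07, edgeR adjusted p = 0.0064), a call lost in gene sums of the transcript estimates (-0.17, edgeR adjusted p = 0.052), whereas the KO GSI libraries, at 22.2, 24.2 and 23.9 CPM, overlapped KO DMSO (-0.03 ± 0.07, edgeR adjusted p = 0.81). Under CB-103 it was 1.16-fold higher in KO than in NT cells (0.21 ± 0.07, edgeR adjusted p = 0.0319), a call lost in 8 of 14 alternatives, among them without NT CB-103 replicate 1 or 3 or KO CB-103 replicate 1 or 3 (edgeR adjusted p = 0.0517, 0.20, 0.18 and 0.12).

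Of the 5 measured members not chosen by their rise, CB-103 changed 4 in NT cells, 3 higher and 1 lower, and all 5 in KO cells, 4 higher and 1 lower. The background is high, since 58.2% of the 17346 genes tested passed in NT cells (29.5% higher, 28.7% lower) and 48.6% in KO cells (24.9% higher, 23.7% lower), so these counts say little by themselves and the sizes carry the description. The median gene moved by 0.04 and -0.01 on the log2 scale. With GSI, 4 of 7 members passed in NT cells, 2 higher and 2 lower, against 24.7% of all genes (9.67% higher, 15% lower). In KO cells none of 7 passed in edgeR, against 19.3% of all genes, and 1 member, NFKBIA, reached an unadjusted p under 0.05 in edgeR. DESeq2 and limma-voom called none there either, and replicates 2 and 3 alone gave 1 call, NFKBIA.

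Between genotypes, CXCL3, NFKBIA and RELB passed under DMSO, beside 21.4% of all genes. TNFAIP3 and BIRC3 passed under CB-103, and TNFAIP3, NFKB2 and RELB under GSI, beside 37% and 33.8% of all genes. CXCL8 is left out of these calls. The 7 members counted for GSI against DMSO and for the GSI interaction include CXCL8, from which nothing is read. CXCL3, counted here and for GSI against DMSO in NT cells, was chosen in part by its DMSO libraries. CB-103 and GSI differed directly in 4 of 5 members in NT cells and in 5 of 5 in KO cells, beside 56.3% and 47.9% of all genes. RELB stood 15.7-fold higher with CB-103 than with GSI in NT cells (3.98 ± 0.24, edgeR adjusted p = 1.1e-10) and 8.07-fold higher in KO cells (3.01 ± 0.22, edgeR adjusted p = 4.0e-09). The same contrast was 1.87-fold for NFKBIA in NT cells (0.91 ± 0.10, edgeR adjusted p = 3.8e-07). Comparisons with the same DMSO or CB-103 libraries share them. Doses were not given in the sources used here, so whether the 2 compounds were matched for dose is not known. The response to CB-103 differed between genotypes in 2 of 5 members, TNFAIP3 and RELB, beside 14.6% of all genes, and the response to GSI in 1 of 7, TNFAIP3, beside 2.79%.

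By TPM, the order of the members turned over with CB-103. In NT DMSO, NFKBIA led at 31.6 TPM, ahead of BIRC3 (10.2), NFKB2 (9.85) and TNFAIP3 (8.37), with CXCL3 at 1.60, RELB at 0.361 and CXCL8 at 0.125 TPM. The libraries of NFKB2 overlapped those of BIRC3. In NT CB-103 the order was NFKBIA (61.4), CXCL3 (53.7), CXCL8 (32.1), TNFAIP3 (16.3), NFKB2 (12.2), BIRC3 (7.25) and RELB (6.38), and no neighbours overlapped. In KO CB-103, CXCL8 led at 136 TPM, and NFKBIA (59.0) and CXCL3 (50.9) overlapped below it.

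Of 33 measured genes of 34 listed as further subunits, inhibitors and kinases, 13 rose and 7 fell with CB-103 in NT cells, and 12 rose and 9 fell in KO cells, with medians of 0.16 and 0.03 log2 units. In either direction 60.6% of the list was called in NT cells and 63.6% in KO cells, beside 58.2% and 48.6% of all genes. By direction, 29.5% of all genes were higher and 28.7% lower in NT cells, and 24.9% and 23.7% in KO cells. These counts are not read as a result about the list. TBK1, an IkB-kinase relative, rose from 38.3 ± 1.6 to 94.5 ± 3.8 CPM in NT cells (1.30 ± 0.06, edgeR adjusted p = 2.3e-12), and RBCK1, a subunit of the linear ubiquitin ligase, rose from 65.5 ± 1.9 to 154 ± 7.1 CPM (1.23 ± 0.07, edgeR adjusted p = 3.5e-11). NFKBIB, which encodes IkB-beta, rose as well (1.22 ± 0.10, edgeR adjusted p = 1.4e-08). IKBKE, another IkB-kinase relative, was higher in KO than in NT cells under DMSO (0.66 ± 0.06, edgeR adjusted p = 6.3e-07), CB-103 (0.72 ± 0.06, edgeR adjusted p = 1.1e-07) and GSI (0.88 ± 0.06, edgeR adjusted p = 1.6e-08).

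Of 35 listed NF-kB target genes outside the members, 18 passed the count filter. Among those that did not, IL1A, IL1B, CCL2, CCL3, EBI3 and PTGS2 were at 0 reads in all 18 libraries, TNF reached at most 9 reads in a library, IL6 2 and CCL20 3. With CB-103, 4 of the 18 rose and 8 fell in NT cells (median -0.34), and 6 rose and 7 fell in KO cells (median -0.12), beside the same shares of all genes as above. IER3, an immediate early gene, rose from 0.952 ± 0.21 to 3.15 ± 0.32 CPM in NT cells (1.72 ± 0.20, edgeR adjusted p = 6.6e-07), and ICAM1, an adhesion molecule, rose from 1.43 ± 0.44 to 3.398 ± 0.55 CPM (1.24 ± 0.19, edgeR adjusted p = 2.4e-05). CFLAR, the inhibitor of caspase-8, fell from 164 ± 3.4 to 32.0 ± 2.5 CPM (-2.36 ± 0.08, edgeR adjusted p = 3.6e-14), and TNFSF10, which encodes TRAIL, fell from 411 ± 17 to 77.1 ± 4.8 CPM (-2.41 ± 0.06, edgeR adjusted p = 8.5e-16). Both fell with GSI too, by 1.28 and 2.57 on the log2 scale (edgeR adjusted p = 7.4e-10 and 2.2e-15).

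Between genotypes under CB-103, 8 of the 18 targets were higher and 1 lower in KO cells (median 0.41), beside 20.4% and 16.5% of all genes. ICAM1 stood at 8.53 ± 0.60 CPM in KO CB-103 (1.33 ± 0.18 over NT, edgeR adjusted p = 1.5e-05), and the maturation marker CD83 at 12.2 ± 1.2 CPM (1.15 ± 0.09, edgeR adjusted p = 3.3e-08). ICAM1 was higher in KO cells with DMSO as well (1.94 ± 0.19, edgeR adjusted p = 9.3e-07). The KO minus NT difference in the CB-103 response was called positive for 7 of the 18 and negative for none (interaction term, edgeR), beside 10.3% and 4.34% of all genes. A positive difference can be a smaller fall, as for TNFSF10 (-2.41 in NT and -1.68 in KO cells) and CFLAR (-2.36 and -1.88). LTB, which encodes lymphotoxin beta, had the largest difference (0.89 ± 0.19, edgeR adjusted p = 0.0035). It stood at 7.91 and 7.73 CPM in NT DMSO and NT CB-103, and at 3.74 and 6.78 CPM in KO DMSO and KO CB-103.

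Receptors and adaptors upstream of NF-kB were measured for 17 of 25 listed genes. In KO cells 7 were higher and 2 lower with DMSO (9.78% and 11.7% of all genes), 9 higher and 4 lower with CB-103 (20.4% and 16.5%), and 6 higher and 3 lower with GSI (18.8% and 15% of all genes), with medians of 0.27, 0.30 and 0.21. IL1R1, the signalling receptor of interleukin-1, stood at 1.91 ± 0.08 CPM in NT DMSO and 9.61 ± 0.70 CPM in KO DMSO (2.33 ± 0.20, edgeR adjusted p = 1.7e-07). It stood at 2.40 ± 0.23 CPM in NT CB-103 and 10.1 ± 0.76 CPM in KO CB-103 (2.07 ± 0.19, edgeR adjusted p = 2.6e-07). IL1RAP, its co-receptor, was higher in KO cells under CB-103 (0.79 ± 0.17, edgeR adjusted p = 0.0011). With CB-103 itself 5 receptors and adaptors rose and 3 fell in NT cells, and 6 rose and 4 fell in KO cells. In either direction these are 47.1% and 58.8% of the list, beside 58.2% and 48.6% of all genes. The largest change in NT cells was that of TLR6, a Toll-like receptor (2.16 ± 0.20, edgeR adjusted p = 3.0e-08).

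Of 18 measured among 21 listed AP-1, C/EBP and stress factors, 12 rose and 2 fell with CB-103 in NT cells (median 0.75), beside 29.5% and 28.7% of all genes. In KO cells 12 rose and 1 fell (median 0.97), beside 24.9% and 23.7%. JUN, a subunit of AP-1, stood at 1.81 ± 0.21 CPM in NT DMSO and 19.4 ± 1.2 CPM in NT CB-103 (3.41 ± 0.15, edgeR adjusted p = 1.3e-12), and at 1.36 ± 0.33 and 21.3 ± 0.53 CPM in KO cells (3.98 ± 0.15, edgeR adjusted p = 5.1e-13). DDIT3, which encodes the stress factor CHOP, went from 9.98 ± 0.69 to 285 ± 18 CPM in NT cells (4.83 ± 0.08, edgeR adjusted p = 3.7e-17). With GSI, 4 rose and 4 fell in each genotype, beside 9.67% and 15% of all genes in NT cells and 9.69% and 9.58% in KO cells. JUN stood at 1.36 ± 0.29 CPM in NT GSI and fell in KO GSI (-0.78 ± 0.19 against DMSO, edgeR adjusted p = 0.0063). Between genotypes under CB-103, 4 were higher and 4 lower in KO cells, beside 20.4% and 16.5% of all genes.

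**Figure D5:**
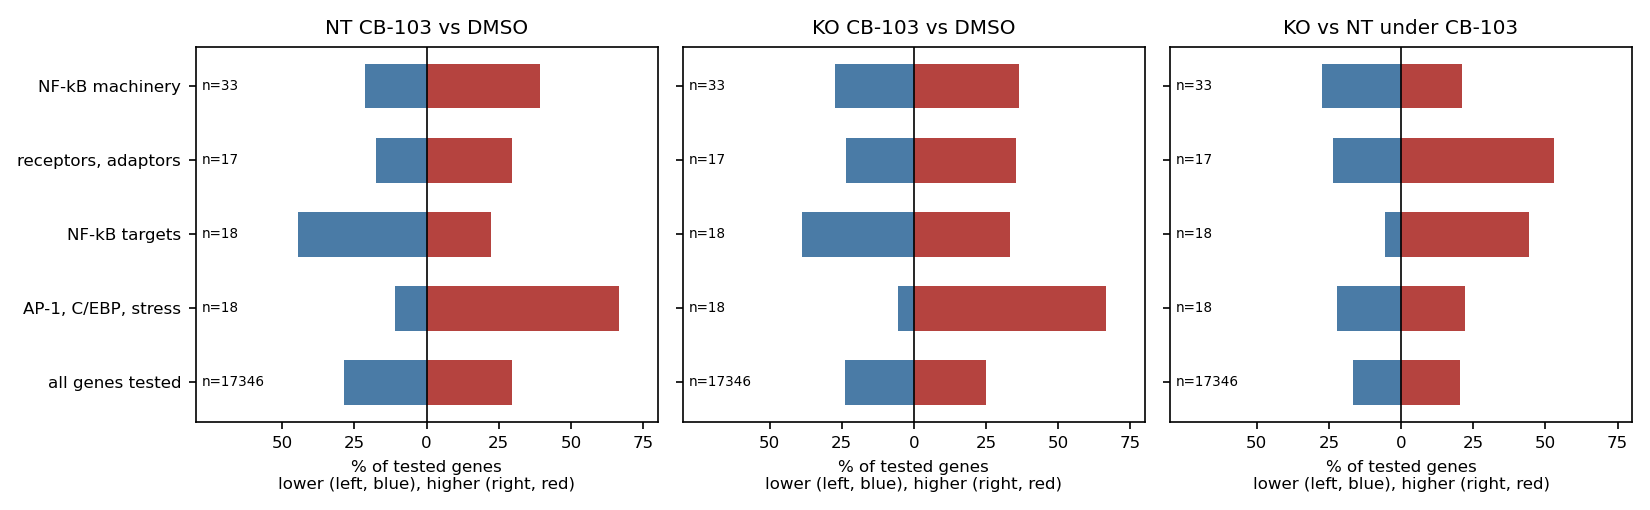
Percent of measured genes called higher (red, right) or lower (blue, left) at an adjusted p under 0.05 (horizontal axis) in 4 lists and among all 17346 genes tested (vertical axis), for CB-103 against DMSO in each genotype and for KO against NT under CB-103. With CB-103 the AP-1, C/EBP and stress list reaches 12 of 18 higher in both genotypes, beside 29.5% of all genes in NT cells and 24.9% in KO cells. Of the 18 NF-kB targets, 4 are higher and 8 lower in NT cells, and 6 higher and 7 lower in KO cells. The shares of all genes called lower are 28.7% and 23.7%.

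Myeloid cells are a known source of CXCL8, and the summed level of 10 myeloid markers moved with it, at 5.59 to 6.94 CPM in NT DMSO, 15.2 to 17.3 in NT CB-103, 5.10 to 5.99 in KO DMSO and 33.3 to 41.1 in KO CB-103. CD68, a lysosomal glycoprotein, made up that rise, at 2.86 to 3.87 CPM in KO DMSO and 31.2 to 39.4 CPM in KO CB-103. The other 9 markers summed to 2.08 to 2.24 CPM in KO DMSO and 1.68 to 2.14 CPM in KO CB-103. Of these, ITGAM, LYZ and S100A9 reached group means of up to 1.55, 1.31 and 0.790 CPM, and MPO and CD14 of up to 0.227 and 0.197 CPM. FCGR3A, FCGR3B and CSF1R held at most 2, 1 and 1 reads in a library, and S100A8 was at 0 reads in all 18. The source of the CXCL8 RNA was not tested.

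The 6 genes whose log2 CPM followed CXCL8 most closely over the 18 libraries, among 12894 candidates, were ADAM17 (r = 0.990), FTL (0.990), TMEM167B (0.987), DYNC1I1 (0.985), DNAJB1 (0.985) and SEC22B (0.984). All 6 were highest in KO CB-103 and next in NT CB-103. FTL, the ferritin light chain, stood at 829 CPM in NT DMSO, 2308 in NT CB-103, 922 in KO DMSO and 3106 in KO CB-103. For NFKBIA they were CDK2AP2, VEZT, KDELR2, TMEM263, GANAB and ATF6B (r from 0.978 to 0.984), and for NFKB2 they were FLNA, SOCS4, ENSG00000259834, HAUS4, DHX58 and CRTC3 (r from 0.841 to 0.902). The 18 libraries fall into 6 groups, so these values describe shared group levels. Over the same libraries CXCL8 correlated with CXCL3 at r = 0.945, with RELB at 0.957 and with NFKB2 at 0.343.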

How the data were processed

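The authors deposited estimated counts per gene, rounded to whole numbers. Per the file headers, they also deposited expected counts, TPM and effective lengths per transcript. How transcripts were joined to genes is not stated. Tools in the submitters' processing notes are Salmon 1.4.0, HISAT2 2.2.1, FastQC 0.11.9 and bcl2fastq 2.20, with build hg38. All 206601 transcripts matched GENCODE 29. TPM per gene was summed over transcripts.

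Genes were filtered with filterByExpr, which left 17346 and 7 of the 10 members (not CXCL1, CXCL2 or NFKB1), and scaled by TMM. The quasi-likelihood F test of edgeR 4.0.16 (R 4.3.3) used all 18 libraries, 1 mean for each group, 12 residual degrees of freedom and Benjamini-Hochberg adjustment over all genes. Calls needed an adjusted p under 0.05. The procedure was tested on simulated data. CPM are counts scaled to TMM library sizes. Errors of log2 fold changes are standard errors. Of 9 two-group and 2 interaction comparisons, 5 contain the choice of CXCL8 and CXCL3, which are left out of their tests and counts. No p is given for either between genotypes under CB-103, nor for CXCL8 elsewhere.

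Members and lists (CXCL chemokines and receptors, NF-kB subunits with inhibitors and kinases, upstream receptors and adaptors, NF-kB targets, and AP-1, C/EBP and stress factors) were chosen with earlier results of these data known. Up to 4 called genes per list and comparison with the largest change and a mean of at least 1 CPM could be named, and for CXCL8, NFKBIA and NFKB2 the 6 genes with the highest Pearson r. SOD2 was not analysed here. Alternatives were DESeq2 1.42.0 size factors and Wald test, limma-voom (limma 3.58.1), no count filter, transcript sums, fewer libraries and the replicate number as a block.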

Additional observations from a re-analysis of the deposited data

Results flagged for a closer look

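The response to CB-103 differed between the genotypes for TNFAIP3 and for RELB by a test of the difference itself. For TNFAIP3 the KO response minus the NT response was -0.52 log2 units (edgeR interaction term, adjusted p = 3.4e-04), and it remained called in all 20 alternatives, between -0.56 and -0.25. The value of -0.25 came from gene sums of the transcript estimates. For RELB this difference was -1.18 log2 units (edgeR interaction term, adjusted p = 0.0189), between -1.66 and -0.85 over 20 alternatives, of which 3 lost the call, each by leaving out 1 DMSO library. RELB started from 0.370 to 0.766 CPM in NT DMSO and from 0.834 to 1.53 CPM in KO DMSO. The response to GSI differed between the genotypes for TNFAIP3 by -0.34 log2 units (edgeR interaction term, adjusted p = 0.0401), and 14 of 20 alternatives lost this call.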

How the results depend on the processing

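Of 1157 values for single members under alternatives, 1033 kept their direction and, where tested, their side of the threshold, and 138 of 166 counts of called members stayed within 1.5 times the reported count. Both totals include CXCL8 and CXCL3. Same-numbered libraries did not all deviate together (31 of 45 pairs had a correlation above 0.1, the lowest -0.071), although 15 of 18 libraries correlated best with their own number. The libraries numbered 1 did deviate together, with correlations of 0.257 to 0.352 in every pair across groups. The median for pairs with different numbers was -0.136. With the replicate number as a block, 1 member in place of 0 was called for GSI in KO cells, and NFKBIA was then called there (adjusted p = 0.0119), between genotypes under GSI (0.0136) and in the CB-103 interaction (0.0070). Replicates 2 and 3 alone gave 1 call for GSI in KO cells, 3 of 5 for CB-103 in KO cells and 0 for the GSI interaction, which also gave 0 with no count filter and with transcript sums. A fit to the compared groups alone gave 2 calls for GSI in NT cells.

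Leaving out 1 library gave 4 to 5 calls for CB-103 against DMSO in NT cells and 5 in KO cells. For GSI against DMSO it gave 2 to 4 in NT cells and 0 in KO cells. Between genotypes it gave 2 to 4 under DMSO and 1 to 4 under GSI. No range is given between genotypes under CB-103, where CXCL8 adds to the count. For CB-103 against GSI it gave 3 to 4 in NT cells and 4 to 5 in KO cells. The CB-103 and GSI interactions gave 1 to 3 and 0 to 1. The single count between genotypes under GSI came without NT GSI replicate 3, and the single counts of the CB-103 interaction without NT DMSO replicate 2 or 3 or KO DMSO replicate 2. The counts between genotypes, for GSI against DMSO and for the GSI interaction include CXCL8, from which nothing is read.

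Values whose sign turned were uncalled ones near 0. For GSI in NT cells CXCL8 was -0.031 in limma-voom and -0.69 in replicates 2 and 3, and NFKBIA was -0.0041 with no count filter. With transcript sums TNFAIP3 was 0.13 and NFKB2 -0.11 for GSI in KO cells, TNFAIP3 was -0.054 between genotypes under DMSO, and NFKB2 was 0.042 for CB-103 against GSI in NT cells. BIRC3 was 0.046 for GSI in KO cells in replicates 2 and 3. Leaving out 1 library, GSI in NT cells ranged from -0.77 to 0.60 for CXCL8, -0.036 to 0.067 for NFKBIA and -0.083 to 0.46 for RELB, and GSI in KO cells from -0.24 to 0.25 for RELB, -0.052 to 0.14 for NFKB2 and -0.059 to 0.0061 for BIRC3. NFKBIA between genotypes under CB-103 ranged from -0.20 to 0.045, NFKB2 for CB-103 against GSI in NT cells from -0.13 to 0.031, and the GSI interaction from -0.57 to 0.16 for RELB and -0.029 to 0.72 for CXCL3. The causes were not tested. Depth limits CXCL8, CXCL3 and RELB outside CB-103, where a library holds few reads.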
